A study of Mus musculus with 9 samples.

Results

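Joining the ETS-family transcription factor TEL to the coactivator MN1 was examined by setting the 3 MN1-TEL arrays of this mouse series against its 3 MN1 arrays, 6 of the 9 arrays in all, chosen by the construct named in each sample's labels. All genes were considered, and the description looks past the classic neutrophil genes and the Hox genes. Both groups were c-kit-enriched bone marrow cells of the C57/Bl6 strain, transduced with a retrovirus and kept in liquid culture for 10 days, in medium holding 20 ng/µl SCF plus 10 ng/µl each of IL-3 and IL-6. The first group carried MN1-TEL and the second carried MN1 alone. The remaining 3 arrays, of MN1-TEL del DBD, are not compared here. They entered the normalization, the filter and choice of probes, and the estimate of the spread. No untransduced cells are compared here, so both groups share the MN1 part of the construct and the retroviral transformation. The sources used here do not say whether the replicates were separate transductions or cultures, or how many clones a culture held, so the p-values measure the spread between these arrays, which may be technical. The number of arrays limits the precision.

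MN1 is a transcriptional coactivator that works with nuclear receptors for retinoids and, when overexpressed, transforms bone marrow progenitors. TEL, encoded by Etv6, is an ETS protein that usually represses transcription through histone deacetylase complexes and is joined to MN1 by a chromosome translocation in human myeloid leukemia. In the fusion the MN1 part is linked to the DNA-binding ETS domain of TEL, which recognises sites with a GGAA core. In bone marrow, myeloid maturation is known for the gain of pattern recognition receptors, immunoglobulin-like receptors and lysosomal proteins.

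Kit, the receptor for SCF and the marker named in the labels, measured 14.75, 13.86 and 14.56 in MN1-TEL against 13.64, 13.53 and 13.81 in MN1 (log2 normalized intensity, as for every level below). Kit is also among the mast cell and basophil markers used below, so its level cannot tell progenitors from such cells. No array detected the Mn1 probe, and its position relative to the construct is not known. Etv6 was not called, with a difference of 0.16 (SE 0.12, limma adjusted p = 0.309), or 0.74 and called with arrays scaled to the median of every probe. Bmi1, the Polycomb gene of the series title, differed by 0.50 (SE 0.19, limma adjusted p = 0.0461), its arrays overlapped between the groups, and leaving out MN1 replicate 2 ended the call (adjusted p = 0.129), as did other alternatives.

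MN1-TEL replicate 2 stood apart from its group. Correlations between arrays over the genes tested, a description only since genes are not replicates, ran from 0.975 to 0.990 within MN1-TEL, 0.993 to 0.994 within MN1 and 0.878 to 0.885 between them, and the median SD of a gene was 0.218 in MN1-TEL and 0.114 in MN1. The elongation factor gene Eef2 measured 10.75, 7.83 and 11.41 in MN1-TEL against 9.81, 9.51 and 9.63 in MN1. The leukocyte phosphatase Ptprc measured 8.80, 5.96 and 8.57 in MN1-TEL against 7.64, 7.50 and 7.30 in MN1. Replicate 2 was the low array in both, and these genes were picked for that gap. Without replicate 2, 2441 genes were called higher and 3065 lower, and list counts below are also given without any single array that moved them by over 1.5 times.

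Of the 9136 genes tested, 4995 were called at an adjusted p under 0.05, or 54.7%, with 2309 higher in MN1-TEL (25.3%) and 2686 lower (29.4%). At least 2-fold differences made up 20.4%, with 1007 genes higher (11%) and 855 lower (9.36%). The 3 arrays of one group lay wholly above the 3 of the other in 60.8% of genes. Differences reached past 16-fold upward in 66 genes and downward in 46. Counts of list members below are read against these shares and are descriptions, not tests of a list. A dim gene could pass the filter through the group where it was high, which adds to such counts and to the shares. Since the RNA came from whole cultures, fewer cells of a type and less RNA per cell cannot be told apart.

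The balance of rises and falls depended on how arrays were scaled. Mean raw intensity was 927 to 973 in MN1-TEL arrays and 632 to 689 in MN1 arrays, which quantile normalization removes. Scaled to the median of the probes kept, 1935 genes were higher and 3247 lower, and scaled to the median of every probe, most of them at background, 4497 were higher and 1028 lower. The median difference over all genes was -0.06 after quantile normalization, -0.17 with the median of the probes kept and 0.40 with the median of every probe, so small shifts of whole gene groups are read relative to that median, and groups whose direction turned with it are named as such.

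**Figure D1:**
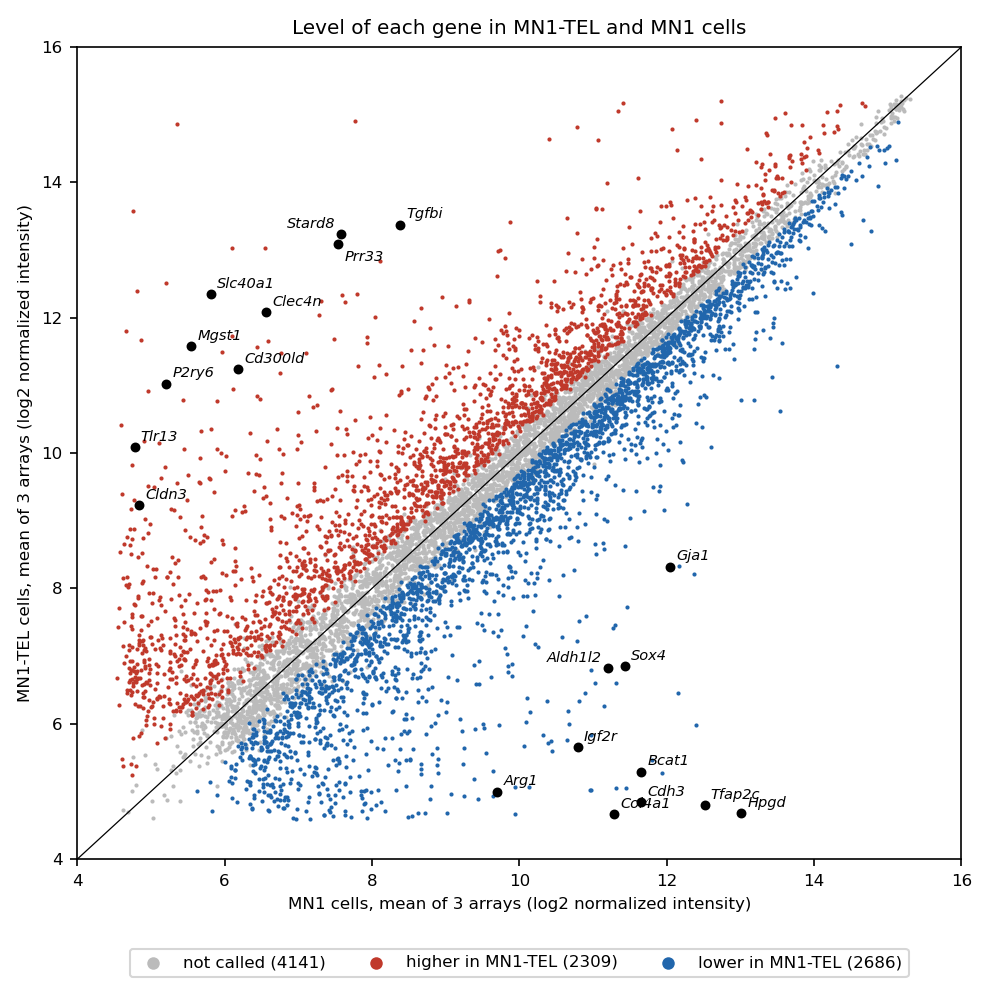
Mean log2 normalized intensity of each of the 9136 genes over the 3 MN1-TEL arrays (vertical axis) and the 3 MN1 arrays (horizontal axis). Points are genes, red where called higher in MN1-TEL (2309), blue where called lower (2686) and grey where not called (4141), and the line marks equal levels. Black points are named in the text, and several of them, such as Tlr13 and Hpgd, lie at the background end of 1 axis.

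The largest rises among genes detected on all 6 arrays are given first. Stard8, encoding a protein with a lipid-binding START domain, measured 12.95, 13.24 and 13.52 in MN1-TEL against 7.63, 7.41 and 7.72 in MN1. That is a log2 difference of 5.65 (SE 0.15, limma adjusted p = 9.28e-09), and its second probe gave 5.04. Prr33, annotated as a long noncoding RNA, differed by 5.55, and Tgfbi, a secreted adhesion protein induced by TGF-beta, by 4.998, at 13.45, 13.30 and 13.38 in MN1-TEL against 8.14, 8.28 and 8.70 in MN1. The 3 arrays of each group lay close together and the groups did not overlap. Rab15, a small GTPase of endosomal recycling, rose by 4.71 (SE 0.24), Slc15a3, a histidine and peptide transporter of the lysosomal membrane, by 4.42 (SE 0.18), and Lhfp, a tetraspan membrane protein, by 4.76 (SE 0.28). Ly6c1, a surface protein of the Ly6 family with near-identical copies, rose by 4.93 and cannot be told from Ly6c2 with certainty. Egr2, a zinc finger factor of macrophage differentiation, measured 12.49, 12.01 and 12.53 in MN1-TEL against 7.67, 7.57 and 8.13 in MN1.

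The largest falls were taken from the same genes. Sox4, an HMG-box factor that blocks myeloid differentiation, measured 6.55, 6.88 and 7.13 in MN1-TEL against 11.48, 11.47 and 11.34 in MN1, a difference of -4.58 (SE 0.15, limma adjusted p = 4.51e-08). Auts2, which takes part in Polycomb complexes that activate transcription, fell by 4.47 (SE 0.21), with differences of -2.53 and -2.51 at its other probes. Stard10, a phospholipid transfer protein, fell by 4.42 (SE 0.22). Asb2, a substrate adaptor of a ubiquitin ligase that is induced by retinoic acid in human leukemia cells, measured 6.63, 7.54 and 6.23 in MN1-TEL against 11.04, 10.76 and 11.11 in MN1. For Sox4 and Asb2 every MN1-TEL array lay well below every MN1 array, and MN1-TEL replicate 2 was the highest of its group for Asb2. Gja1, a gap junction connexin, fell by 3.73 (SE 0.42), and Pdpn, the mucin-type glycoprotein podoplanin, fell by 3.85 (SE 0.31). Pcdh7, a protocadherin, fell by 3.72 (SE 0.19), and Zfp703, a zinc finger corepressor, fell by 3.74 (SE 0.15). Schip1, a cytoskeletal adaptor, fell by 3.84 (SE 0.18).

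Another set of genes was detected in one group only. On all 3 MN1-TEL arrays and no MN1 array 323 genes were detected (3.54%), and 316 of them were called, while 241 (2.64%) showed the reverse and all 241 were called. These genes were picked by the same intensities that the test used, so their calls were largely fixed by the selection. For such genes a fold is given as a minimum, setting the brighter group's mean against each dim array's own value, raised where needed to that of its dimmest detected probe. Mgst1, a microsomal glutathione transferase, measured 11.23, 11.89 and 11.63 in MN1-TEL and was not well above background in MN1, a difference of at least 42.5-fold (adjusted p = 1.62e-08). Receptors for extracellular nucleotides were among the brightest of the gained genes. P2ry6, which binds UDP, was at least 28.9-fold higher (adjusted p = 9.46e-09) with 10.98, 11.16 and 10.94 in MN1-TEL, and P2ry13, which binds ADP, at least 16.1-fold (adjusted p = 5.65e-09). Acute phase genes were there too, with Lrg1, a leucine-rich glycoprotein, at least 24.4-fold and Saa3, a serum amyloid protein, at least 17.8-fold higher. Klk1b11 was at least 49.6-fold higher, but kallikreins have near-identical copies and a second probe gave a smaller log2 difference of 3.95.

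Ifit1bl1, a gene of the interferon-induced IFIT family and one of the brightest of the gained set, stood at 10.13, 10.35 and 10.76 in MN1-TEL and was not well above background in MN1, at least 18.9-fold higher. It sits in a cluster of near-identical genes, so the assignment is uncertain. Its promoter is shown because the window held 2 matches to the interferon element GAAANNGAA, marked in capitals, the second in the opposite orientation (RefSeq, GRCm38.p6, chr19:34599378-34599677, minus strand, from 250 bases before to 50 after the start; 1 of 2 annotated starts).

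Ifit1bl1: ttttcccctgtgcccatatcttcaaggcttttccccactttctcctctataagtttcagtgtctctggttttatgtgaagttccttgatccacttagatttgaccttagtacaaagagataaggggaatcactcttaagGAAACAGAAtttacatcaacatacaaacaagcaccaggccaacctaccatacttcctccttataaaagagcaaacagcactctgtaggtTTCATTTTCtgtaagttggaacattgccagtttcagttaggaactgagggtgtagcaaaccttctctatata

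That element, searched on both strands, occurred in 8.21% of the promoter windows of genes called higher, in 6.88% of those called lower and in 6.53% of those not called. The share was 9.98% for genes at least 2-fold higher and 6.68% for those at least 2-fold lower, against 7.06% for all genes tested. A match is only a match of letters in a window of 300 bases.

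Of the genes lost, Hpgd, which inactivates prostaglandins, measured 12.92, 13.02 and 13.10 in MN1 and was not well above background in MN1-TEL, at least 124-fold lower (adjusted p = 7.77e-07). Tfap2c, an AP-2 factor of placenta and skin, was at least 87.8-fold lower, and its other probes fell by 5.90 and 4.62. C2cd4a, a nuclear protein with a calcium-binding type of fold, was at least 59.0-fold lower, and Cd27, a TNF receptor family member of lymphocytes and early progenitors, at least 38.3-fold. Serpinf1, which encodes the secreted protein PEDF, measured 11.50, 11.52 and 11.31 in MN1 and 4.85, 5.29 and 5.02 in MN1-TEL, where no array detected it. All these genes were bright on each MN1 array and at the floor of the measurement on each MN1-TEL array.

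Of 12 measured C-type lectins of myeloid cells, which bind sugars on microbes and dying cells, 10 rose and 0 fell, with a median log2 difference of 1.41 against -0.06 over all genes. Clec4n, known as dectin-2, a receptor for fungal mannans, measured 11.99, 12.16 and 12.08 in MN1-TEL against 6.34, 6.70 and 6.63 in MN1, or 45.9-fold (adjusted p = 5.65e-09). Clec7a, known as dectin-1, a receptor for beta-glucan, measured 9.09, 10.12 and 8.58 in MN1-TEL and was at least 6.26-fold higher, with 2 of 3 MN1 arrays above background. Clec5a, which pairs with the adaptor DAP12, was at least 9.90-fold higher. Clec4a1, Clec4a3 and Clec4b1, of the same cluster as Clec4n, were seen on MN1-TEL arrays only, at least 1.65-fold, 1.27-fold and 3.30-fold higher. The members that were not called were Clec4e at -0.22 and Cd69 at -0.02, chosen after their values were seen.

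Paired immunoglobulin-like receptors, in which an activating and an inhibitory form share ligands, were also higher, with 16 of 19 measured members higher, 1 lower and a median of 1.73. Counted with dim members at their bound, the median was 1.01. Cd300ld, an activating member of the CD300 family, measured 11.05, 11.27 and 11.39 in MN1-TEL and was at least 29.3-fold higher, since only 1 MN1 array detected it. Pilra, the inhibitory partner of its pair, measured 12.62, 13.16 and 12.74 in MN1-TEL against 8.27, 7.58 and 8.46 in MN1, a rise of 4.74 (SE 0.23). Tyrobp, the adaptor DAP12 through which many activating members signal, measured 12.63, 12.70 and 12.50 in MN1-TEL against 9.63, 9.59 and 9.87 in MN1, so the 3 arrays of each group were tightly placed and about 3 log2 units apart. Trem2, a lipid receptor that signals through DAP12, was not well above background in MN1 and was at least 6.29-fold higher. Sirpa, the inhibitory receptor for CD47, rose by 1.73 (SE 0.10), and Sirpb1a, a relative with near-identical copies, was at least 2.65-fold higher. Without MN1-TEL replicate 1, 2 members fell. The member that fell with all arrays was Treml1, a platelet protein, which is named again with the platelet genes.

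Fc and complement receptors rose in 10 of 16 measured members and fell in 2. Fcgr4, an activating receptor for IgG, measured 9.91, 10.88 and 10.00 in MN1-TEL against 7.08, 7.01 and 6.89 in MN1, a rise of 3.27 (SE 0.22, limma adjusted p = 2.49e-06). Fcgr3 rose by 1.44 (SE 0.11), and Fcgr1, the high-affinity receptor, was at least 2.09-fold higher. Itgam, the alpha chain of complement receptor 3, measured 7.88, 8.21 and 8.13 in MN1-TEL and was at least 3.73-fold higher. Cfp, properdin, which stabilises the alternative complement convertase, rose by 2.45 (SE 0.12). In the other direction Cd93, a C-type lectin-like receptor of early progenitors and endothelium, fell by 1.29, at 11.63, 11.57 and 11.63 in MN1-TEL against 12.97, 12.97 and 12.79 in MN1. The other member that fell, chosen after its value was seen, was C1qbp, a mitochondrial protein, by 0.72.

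Both measured members of the membrane-spanning 4A family rose, out of 13 on the array. Ms4a6d rose by 4.40 (SE 0.25, limma adjusted p = 8.84e-07), and Ms4a7, expressed in macrophages, measured 8.39, 9.21 and 8.69 in MN1-TEL and was at least 6.02-fold higher. The ETS site CCGGAAGT, searched on both strands, lay in the Ms4a7 promoter window. This window is shown because Ms4a7, Mars1 and Rpl19 were the named genes listed with such a match and Ms4a7 changed most of them (RefSeq, GRCm38.p6, chr19:11336097-11336396, minus strand, capitals marking the site in the opposite orientation). The list of matches did not cover every chromosome, so other named genes may also hold the site.

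Ms4a7: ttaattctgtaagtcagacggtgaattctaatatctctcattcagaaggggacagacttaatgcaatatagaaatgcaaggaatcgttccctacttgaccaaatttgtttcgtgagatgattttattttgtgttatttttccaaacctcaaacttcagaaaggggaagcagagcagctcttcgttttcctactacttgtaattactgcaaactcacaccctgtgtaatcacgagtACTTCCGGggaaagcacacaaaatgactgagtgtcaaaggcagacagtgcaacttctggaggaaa

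Across promoter windows the ETS site was present in 5.68% for genes called higher, 7.87% for genes called lower and 10.31% for genes not called, against 8.41% for all genes tested. Among at least 2-fold changes it stood at 2.52% for higher and 4.01% for lower genes. These shares describe the letters searched and say nothing about binding.

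Toll-like receptors, their adaptors and inflammasome genes were the largest receptor list, with 18 of 23 measured members higher, 2 lower and a median of 1.41. Tlr2, which senses bacterial lipoproteins, measured 12.30, 12.34 and 12.36 in MN1-TEL against 7.74, 7.41 and 7.64 in MN1, or 26.7-fold (adjusted p = 7.44e-09). Its heterodimer partner Tlr1 was at least 2.68-fold higher. The endosomal sensors moved alike, with Tlr13, a sensor of bacterial ribosomal RNA, at least 15.1-fold higher, at 10.13, 10.02 and 10.12 in MN1-TEL, and Tlr7, a sensor of single-stranded RNA, at least 9.93-fold. Nod1, a cytosolic sensor of peptidoglycan, rose by 3.18 (SE 0.13). Ticam2, the adaptor that links TLR4 to interferon induction, went the other way, at 6.66, 7.29 and 6.84 in MN1-TEL against 9.53, 9.44 and 9.38 in MN1 (adjusted p = 1.32e-06). The second member that fell was Tlr5, the flagellin receptor, by 0.63, chosen after its value was seen, and 1 member fell in place of 2 without MN1 replicate 1 or replicate 3. Of 6 measured Schlafen and Ifi200 genes, which are induced by interferon, 4 rose and 1 fell, out of 18 on the array. With detection required on all 6 arrays 3 were measured, of which 1 rose and 1 fell. With no filter on dim probes 5 of 18 rose and 0 fell, and the median was 0.17. The first count therefore leans on members that MN1 arrays did not all detect. Slfn1 was at least 15.7-fold higher, Ifi207 at least 3.70-fold, Mndal at least 1.01-fold, and Slfn2 rose by 1.84 (SE 0.20). Ifi213, the member that fell, was chosen after its value was seen and differed by -0.57 (SE 0.20). Its arrays overlapped between the groups, and 0 members fell without MN1-TEL replicate 1 or 3, without MN1 replicate 1 or 2, without MN1-TEL del DBD replicate 3, or with the 6 arrays alone.

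**Figure D2:**
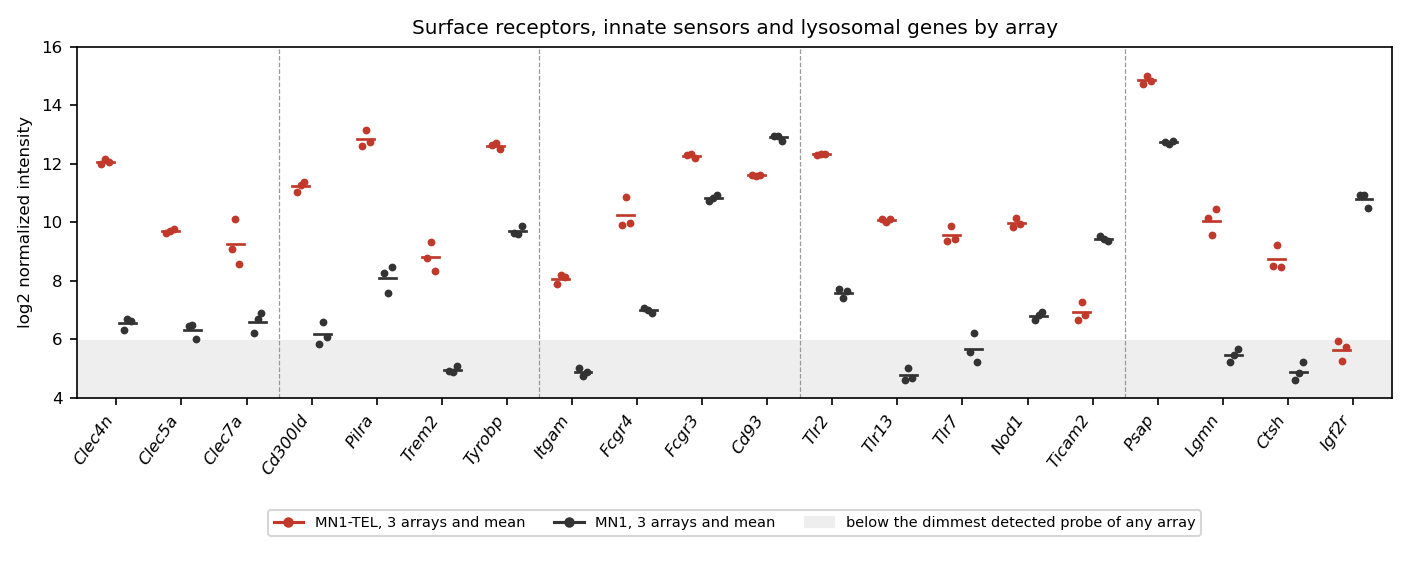
Log2 normalized intensity (vertical axis) of surface receptors, innate sensors and lysosomal genes, with the 3 MN1-TEL arrays in red to the left of the 3 MN1 arrays in black, bars marking group means and dashed lines separating lectins, paired receptors, Fc and complement receptors, sensors and lysosomal genes. Levels in the grey band lie below the dimmest detected probe of any array. All genes shown are higher in MN1-TEL except Cd93, Ticam2 and Igf2r.

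Several of these receptors are shared by macrophages, dendritic cells and other myeloid cells, so marker levels are given beside them. Of 13 macrophage and monocyte markers 5 were measured, and their summed level was 13.2 to 13.3 in MN1-TEL and 11.9 to 12.3 in MN1 (log2). The receptor gene for M-CSF, Csf1r, was higher by at least 9.23-fold, and Cx3cr1, the fractalkine receptor, measured 11.36, 10.23 and 10.96 in MN1-TEL against 6.67, 7.004 and 7.74 in MN1. Ccr2, the receptor for CCL2, measured 8.54, 8.67 and 8.44 in MN1 and was at least 5.63-fold lower in MN1-TEL, while C1qa, C1qb, C1qc, Vcam1 and Mertk did not pass the filter. Of 12 dendritic cell markers 4 were measured, with a sum of 12.5 to 12.7 in MN1-TEL and 10.97 to 11.43 in MN1. Cd74, the invariant chain of MHC class II, measured 11.51, 11.23 and 11.75 in MN1-TEL and was at least 35.8-fold higher, H2-Eb1 at least 3.98-fold and H2-Aa at least 5.61-fold. The other measured marker, H2-Ab1, was the only one detected on all 6 arrays and was not called (difference 0.13), so these class II genes did not all rise. Ciita and the defining dendritic genes Flt3, Itgax, Zbtb46, Clec9a, Xcr1, Siglech and Batf3 did not pass the filter. The part of such cells in the receptor results was not tested.

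Signalling components downstream of these receptors shifted by smaller amounts. Of 23 measured Src-family and immune receptor kinases and adaptors, 14 rose and 2 fell, with a median of 0.60. Fgr, a Src-family kinase of myeloid cells, was at least 1.60-fold higher, Pik3ap1, an adaptor for PI3 kinase, rose by 1.74 (SE 0.17), Dok3, an inhibitory adaptor, by 1.55 (SE 0.11) and Prkcd, a protein kinase C, by 1.32 (SE 0.10). Vav3, a signalling protein downstream of immune receptors, rose by 1.23 (SE 0.15), at 11.78, 12.21 and 12.26 in MN1-TEL against 10.95, 10.88 and 10.71 in MN1, whereas its relative Vav2 fell by 0.97 (SE 0.13), at 9.27, 9.42 and 9.10 in MN1-TEL against 10.27, 10.31 and 10.12 in MN1.

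Feedback genes of MAP kinase signalling, 16 of them measured, rose in 9 cases and fell in 3, or 8 and 5 with arrays scaled to the median of kept probes. Errfi1, an inhibitor of EGF receptor family kinases, measured 11.99, 11.92 and 12.02 in MN1-TEL against 9.33, 9.66 and 9.79 in MN1, a rise of 2.39 (SE 0.12). Dusp1 and Dusp5, phosphatases of nuclear MAP kinases, rose by 1.85 (SE 0.12) and 1.26 (SE 0.12), and Ier3, an early response gene, by 0.81 (SE 0.14). The phosphatase gene Dusp2 fell by 2.47 (SE 0.11), at 8.92, 9.23 and 8.97 in MN1-TEL against 11.49, 11.49 and 11.54 in MN1. Etv4, an ETS factor that responds to FGF and ERK signals, measured 8.95, 9.002 and 8.69 in MN1, was not well above background in MN1-TEL and was at least 7.06-fold lower (adjusted p = 1.94e-07). So members of the same feedback family stood on both sides.

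Some immediate early transcription factors were high in MN1-TEL. Fos, a subunit of AP-1, measured 13.67, 13.12 and 13.43 in MN1-TEL against 10.07, 9.94 and 9.62 in MN1, or 11.6-fold (adjusted p = 6.18e-07). Egr3 rose by 3.08 (SE 0.14) beside Egr2, described above, while Egr1, chosen after its value was seen, was not called (difference 0.10, SE 0.13). Among 68 measured hematopoietic transcription factors 27 rose and 16 fell, a split that became 24 and 22 with arrays scaled to the median of kept probes and 37 and 9 with arrays scaled to the median of every probe. Irf4, an interferon regulatory factor of lymphoid and dendritic cells, was detected in MN1-TEL only, at 7.53, 7.61 and 7.38, and was at least 2.52-fold higher. Tcf4, an E protein, fell by 1.81 (SE 0.12), at 10.05, 10.29 and 10.07 in MN1-TEL against 11.88, 11.85 and 12.13 in MN1. Factors of stem and progenitor cells include Sox4, above, and among 9 measured stem and progenitor markers 5 fell and 1 rose. These markers include Sox4 itself and Hoxa9, a Hox gene that no MN1-TEL array detected. Cd34, a sialomucin of progenitors, fell by 0.94 (SE 0.15), Cd27 fell as given, and the marker called higher was Kit, a call lost without MN1-TEL replicate 1 or 3, without MN1 replicate 2, and with arrays scaled to the median of kept probes.

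Members of 1 pathway also split in TGF-beta and BMP signalling, which uses type I and type II receptors and Smad proteins. Of 23 measured genes 9 rose and 6 fell. The TGF-beta receptors Tgfbr1 and Tgfbr2 rose by 1.38 (SE 0.12) and 1.33 (SE 0.11), and Smad2, which carries their signal, measured 9.79, 9.88 and 9.82 in MN1-TEL against 8.61, 8.51 and 8.85 in MN1. Smad1, which carries BMP signals, measured 10.25, 10.49 and 10.39 in MN1-TEL against 12.53, 12.51 and 12.39 in MN1, a fall of 2.10 (SE 0.12, limma adjusted p = 7.13e-07). Smad3, a second TGF-beta carrier picked after its value was seen, fell by 1.62, so the split did not follow the branches of the pathway. The accessory receptor Eng, endoglin, was not well above background in MN1-TEL and was at least 1.54-fold lower, and the latent TGF-beta binding protein Ltbp1 at least 1.79-fold higher.

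Of 20 measured Wnt and Notch genes 5 rose and 7 fell. Fzd5, a Wnt receptor, fell by 1.75 (SE 0.13), with 0.67 at its second probe, while Fzd6 was detected in MN1-TEL only and was at least 1.07-fold higher. Axin2, a target and inhibitor of Wnt signalling, measured 8.11, 6.81 and 7.77 in MN1-TEL and was at least 2.62-fold higher, and Tcf7l2, a factor that acts with beta-catenin, at least 4.47-fold. Hes6, of the Notch target family, fell by 1.16 (SE 0.10). The list's median of -0.23 was -0.06 with dim members at their bound, beside -0.06 over all genes, which was taken without bounds. With arrays scaled to the median of every probe the list's median was 0.15, with 9 higher and 4 lower.

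**Figure D3:**
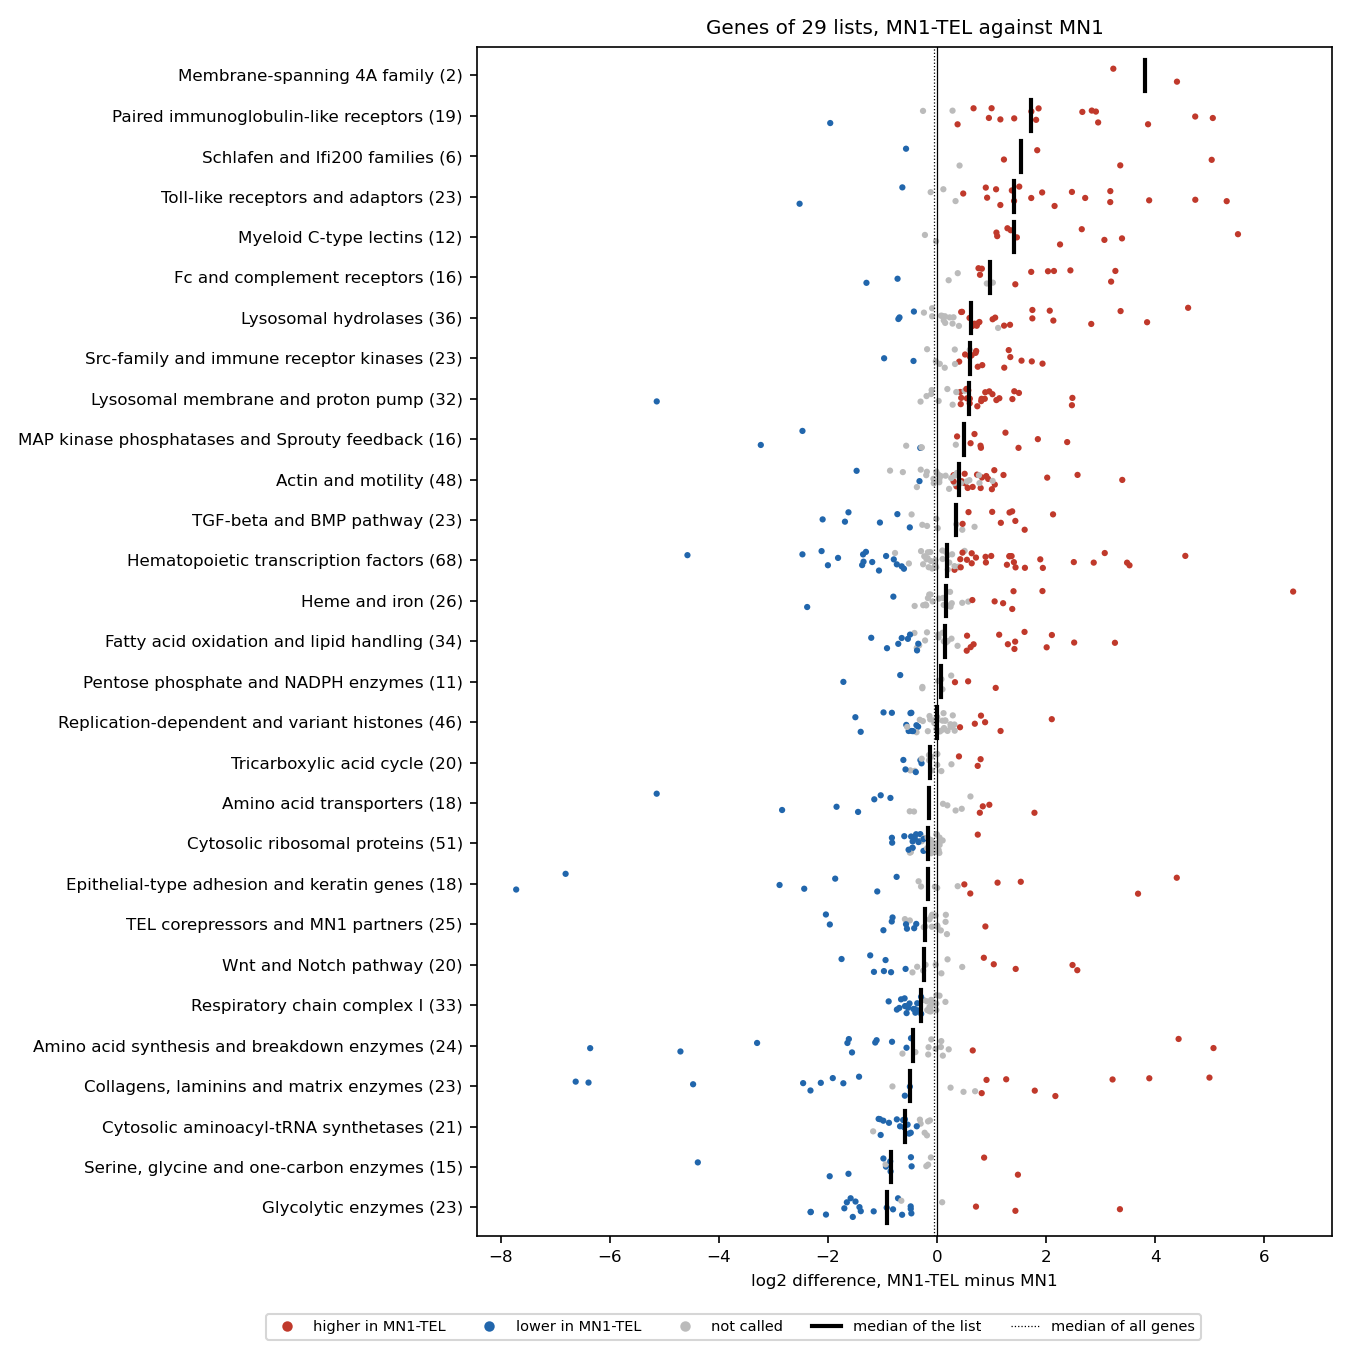
Log2 difference, MN1-TEL minus MN1 (horizontal axis), of the measured genes of 29 lists, with the number measured in brackets and lists ordered by median. Points are genes, coloured by call, thick bars mark the median of each list and the dotted line the median of all genes, -0.06. Receptor lists lie to the right, and glycolytic, one-carbon and aminoacyl-tRNA synthetase lists to the left.

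Lysosomal genes rose more often than they fell. Of 36 measured hydrolases and their activators, 20 rose and 3 fell, with a median of 0.62. Psap, the precursor of saposins that help degrade sphingolipids, measured 14.75, 15.02 and 14.85 in MN1-TEL against 12.74, 12.70 and 12.77 in MN1, or 4.39-fold (adjusted p = 3.50e-07). The cysteine protease genes Lgmn, legumain, and Ctsh, cathepsin H, were detected in MN1-TEL only, at least 14.8-fold and 5.94-fold higher. Ctse, an aspartic protease, rose by 2.83 (SE 0.12), with 0.97 and 3.27 at its other probes, Lipa, the acid lipase, by 1.75 (SE 0.09) and Ppt1, which removes palmitate from proteins, by 1.75 (SE 0.15).

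Lysosomal membrane proteins and subunits of the proton pump had 22 of 32 measured members higher and 1 lower. Gpnmb, a glycoprotein of melanosomes and macrophage lysosomes, measured 13.48, 13.81 and 13.53 in MN1-TEL against 10.98, 11.21 and 11.18 in MN1. Pump subunits rose by less, Atp6v1c1 by 1.42 (SE 0.09) and Atp6v1b2 by 1.09 (SE 0.10). Sort1, the sorting receptor sortilin, rose by 2.48 (SE 0.15), though its other probes ranged from 0.42 to 2.57, and the cystine exporter Ctns rose by 1.50 (SE 0.10) with -0.46 at its second probe. Without MN1-TEL replicate 1, 2 fell. The member that fell with all arrays was Igf2r, the receptor for mannose 6-phosphate that delivers hydrolases to lysosomes and also clears IGF2. It measured 5.96, 5.27 and 5.73 in MN1-TEL, where 1 array detected it, against 10.94, 10.95 and 10.49 in MN1, at least 26.5-fold lower (adjusted p = 7.67e-08). Its second probe fell by 4.64.

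Actin and motility genes rose in 21 of 48 measured members and fell in 2, with a median of 0.40. This count was 31 and 5 without MN1-TEL replicate 2, 16 and 1 without MN1 replicate 1 or replicate 3, 13 and 8 with arrays scaled to the median of kept probes, and 34 and 1 with arrays scaled to the median of every probe. Myo1f, an unconventional myosin of immune cells, measured 12.87, 12.77 and 12.98 in MN1-TEL against 10.72, 10.97 and 10.86 in MN1. Fgd4, an exchange factor for Cdc42, was detected in MN1-TEL only and at least 6.47-fold higher, and Evl, which promotes actin filament growth, at least 4.65-fold. The beta-tubulin gene Tubb6 fell by 1.47 (SE 0.11). Msn, encoding moesin and chosen after its values were seen, differed by 1.02 (SE 0.68, limma adjusted p = 0.233), and it measured 12.06, 9.43 and 12.34 in MN1-TEL against 10.23, 10.48 and 10.05 in MN1, with replicate 2 alone below the MN1 arrays.

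Enzymes of serine, glycine and one-carbon metabolism supply methyl and formyl groups for nucleotides, and 9 of 15 measured members fell while 2 rose, with a median of -0.85. Aldh1l2, the mitochondrial formyltetrahydrofolate dehydrogenase, measured 6.44, 7.43 and 6.59 in MN1-TEL against 10.997, 11.35 and 11.27 in MN1, a fall of 4.39 (SE 0.23, limma adjusted p = 5.93e-07). Shmt2, the mitochondrial serine hydroxymethyltransferase, fell by 1.97 (SE 0.16), at 9.84, 10.44 and 9.87 in MN1-TEL against 12.03, 11.98 and 12.03 in MN1, and its cytosolic counterpart Shmt1 by 0.98 (SE 0.14). Mthfd2 and Psat1, the enzymes of mitochondrial folate and of serine synthesis, fell by 0.94 (SE 0.12) and 0.86 (SE 0.12). Gldc, which cleaves glycine, was at least 1.82-fold lower at this probe, and a second probe fell by 0.21. The members that rose, Mtr and Aldh1l1, were chosen after their values were seen and were near the background, at least 1.16-fold and 1.48-fold higher. Neither call held with arrays scaled to the median of kept probes, with the 6 arrays alone, without MN1-TEL replicate 1 or 3, or without MN1 replicate 1 or 2, and 1 held without MN1 replicate 3 or without MN1-TEL del DBD replicate 1.

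Cytosolic aminoacyl-tRNA synthetases attach amino acids to tRNAs, and 14 of 21 measured members fell while 0 rose, with a median of -0.59. With arrays scaled to the median of every probe 6 fell. Wars, for tryptophan, measured 10.72, 10.57 and 10.67 in MN1-TEL against 11.69, 11.74 and 11.75 in MN1, a fall of 1.07 (SE 0.09, limma adjusted p = 1.33e-05). Vars, Sars, Mars1 and Lars fell by 1.04, 1.03, 0.98 and 0.88 (SE 0.10 to 0.11). Gars, one of the brightest, measured 14.22, 14.34 and 14.28 in MN1-TEL against 14.93, 14.99 and 14.96 in MN1, so shifts of well under 1 log2 unit still separated the groups.

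Amino acid transporters fell in 7 of 18 measured members and rose in 4, and the list median of -0.16 was -0.06 with dim members at their bound, and turned to 0.29 without MN1-TEL replicate 2 and to 0.33 with arrays scaled to the median of every probe. Slc7a3, a cationic amino acid transporter, measured 10.88, 11.24 and 10.83 in MN1 and was at least 30.1-fold lower in MN1-TEL (adjusted p = 8.97e-08), where 1 of 3 arrays detected it. Slc1a4, a carrier for alanine and serine, measured 6.26, 5.94 and 5.69 in MN1-TEL against 8.94, 8.49 and 8.99 in MN1, at least 6.22-fold lower. Slc43a1, a carrier of large neutral amino acids, was at least 3.18-fold lower, and Slc16a10, of aromatic amino acids, fell by 1.15 (SE 0.15). In contrast Slc36a1, a proton-coupled carrier of the lysosome, was detected in MN1-TEL only, at least 1.83-fold higher, and Slc6a6, the taurine carrier, rose by 0.79 (SE 0.09). The Slc1a4 promoter is printed because it held the amino acid response element TGATGCAA, in capitals and in the opposite orientation (RefSeq, GRCm38.p6, chr11:20332664-20332963, minus strand).

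Slc1a4: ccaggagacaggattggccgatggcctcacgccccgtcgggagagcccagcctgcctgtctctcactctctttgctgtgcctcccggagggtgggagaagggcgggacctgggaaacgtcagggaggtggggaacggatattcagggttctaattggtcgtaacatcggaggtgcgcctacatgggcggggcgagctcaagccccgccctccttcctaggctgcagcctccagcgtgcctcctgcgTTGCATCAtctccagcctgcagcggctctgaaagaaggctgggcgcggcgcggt

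This element, searched on both strands, was found in 0.86% of windows of genes called higher, 0.92% of those called lower and 0.35% of those not called. In the synthetase list 3 of 15 windows held it, and in the transporter list 4 of 20, against 0.64% over all genes tested.

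Enzymes that make and break down amino acids fell in 11 of 24 measured members and rose in 3, or 8 each way with arrays scaled to the median of every probe. Bcat1, which transaminates branched-chain amino acids in the cytosol, measured 11.71, 11.73 and 11.52 in MN1, was not well above background in MN1-TEL and was at least 48.3-fold lower (adjusted p = 7.78e-09). Gpt2, the mitochondrial alanine transaminase, fell by 3.30 (SE 0.16), at 7.11, 7.68 and 7.06 in MN1-TEL against 10.64, 10.62 and 10.50 in MN1. Asns, asparagine synthetase, fell by 1.62 (SE 0.12), and by 2.14 and 1.85 at its other probes. The 2 forms of arginase moved in opposite directions. Arg2, the mitochondrial form, measured 9.01, 9.58 and 9.18 in MN1-TEL and was not well above background in MN1, at least 8.47-fold higher (adjusted p = 1.47e-07), whereas Arg1, the cytosolic form, measured 9.23, 9.89 and 9.98 in MN1 and was at least 12.5-fold lower in MN1-TEL (adjusted p = 2.17e-06). Hal, which starts histidine breakdown, measured 11.07, 11.91 and 12.01 in MN1-TEL and was at least 33.2-fold higher.

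Glycolytic enzymes and glucose carriers were lower in 18 of 23 measured members and higher in 3, with a median of -0.92, and the count without MN1-TEL replicate 2 was again 18 and 3. The glucose transporter genes Slc2a1 and Slc2a3 fell by 1.65 (SE 0.11) and 2.32 (SE 0.19), with Slc2a1 at 11.59, 11.58 and 11.44 in MN1-TEL against 13.12, 13.21 and 13.24 in MN1. Pfkl, a phosphofructokinase subunit, fell by 1.49 (SE 0.11) and Aldoc, an aldolase, by 1.58 (SE 0.12), although their second probes gave -0.42 and -0.10. Aldoa, the main aldolase, measured 13.27, 12.93 and 13.06 in MN1-TEL against 14.40, 14.62 and 14.51 in MN1. Hk3, a hexokinase of myeloid cells, was the exception among the named members, at 11.89, 12.44 and 12.57 in MN1-TEL against 9.09, 9.03 and 8.71 in MN1, a rise of 3.36 (SE 0.18, limma adjusted p = 6.02e-07). The others that rose, Pfkfb4 and Pfkfb2, were chosen after their values were seen, at 1.44 (SE 0.15) and 0.72 (SE 0.10), and make regulators of phosphofructokinase.

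**Figure D4:**
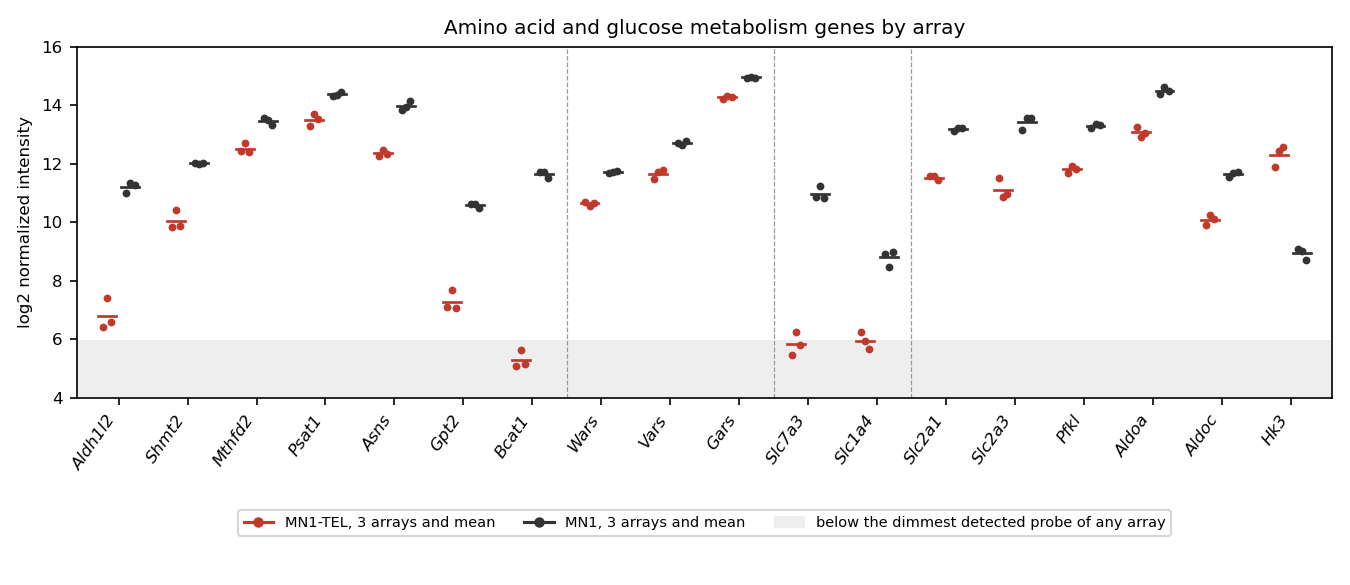
Log2 normalized intensity (vertical axis) of amino acid and glucose metabolism genes, with the 3 MN1-TEL arrays in red to the left of the 3 MN1 arrays in black and bars at the group means. Dashed lines separate enzymes of one-carbon and amino acid metabolism, aminoacyl-tRNA synthetases, amino acid carriers, and glucose carriers with glycolytic enzymes, and the grey band lies below the dimmest detected probe. Every gene shown is lower in MN1-TEL except Hk3.

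Genes known for induction by hypoxia also include Ankrd37, which measured 7.31, 7.86 and 7.10 in MN1-TEL against 11.13, 11.56 and 11.13 in MN1, a fall of 3.85 (SE 0.21, limma adjusted p = 6.15e-07). Plod2, a collagen lysyl hydroxylase, was at least 21.5-fold lower and Hilpda, a lipid droplet protein, fell by 1.21 (SE 0.10). No list of hypoxia genes was set, so these genes do not describe a hypoxia response as a whole, which was not tested. The Ankrd37 promoter is shown for the hypoxia core ACGTG, of which its window held 2 matches, in capitals (RefSeq, GRCm38.p6, chr8:45999801-46000100, minus strand).

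Ankrd37: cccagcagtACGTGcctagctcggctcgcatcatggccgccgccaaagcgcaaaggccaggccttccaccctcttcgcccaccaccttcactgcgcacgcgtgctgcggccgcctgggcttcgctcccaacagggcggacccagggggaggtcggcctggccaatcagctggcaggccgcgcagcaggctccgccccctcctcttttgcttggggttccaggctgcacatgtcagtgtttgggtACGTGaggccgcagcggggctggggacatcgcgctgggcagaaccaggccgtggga

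The core is short and common, present on either strand in 23.65% of windows of genes called higher, 27.94% of those called lower and 27.08% of those not called. For the glycolytic list it was 17 of 34 windows, against 26.46% over all genes tested. The share was not particular to that list. The synthetase list, with falls only, had 7 of 15 windows. Among lists that rose more often than they fell, MAP kinase feedback genes had 9 of 15, lysosomal membrane genes 12 of 29 and actin genes 7 of 56. The core also lay in the window of Plin2, a gene that rose, as given below.

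Mitochondrial and ribosomal genes shifted by little, and how many passed the test depended on the scaling. Of 33 measured subunits of respiratory complex I, 0 rose and 17 fell, 26 fell with arrays scaled to the median of kept probes, and 5 rose and 1 fell with arrays scaled to the median of every probe. Without MN1 replicate 1, 10 fell. Ndufv3, at the matrix arm, measured 12.95, 13.27 and 12.89 in MN1-TEL against 13.93, 13.95 and 13.88 in MN1. Of 51 measured cytosolic ribosomal proteins 1 rose and 15 fell, with 46 and 5 falling under those scalings. Leaving out 1 array gave 8 falls without MN1 replicate 2, 9 without MN1 replicate 3, 9 without MN1-TEL replicate 3 and 18 without MN1-TEL replicate 2, and the single rise was lost under most of these. Rpl27 and Rpl22 fell by 0.82 (SE 0.11) and 0.83 (SE 0.13), and Rpl22, at 10.82, 11.31 and 11.04 in MN1-TEL against 11.83, 11.88 and 11.94 in MN1, kept the groups apart. Enzymes of the tricarboxylic acid cycle fell in 5 and rose in 3 of 20 measured members, or in 0 and 7 with arrays scaled to the median of every probe and in 9 and 3 with the median of kept probes. Without MN1 replicate 2 the numbers were 2 and 2, and without MN1 replicate 1 or replicate 3 they were 3 falls and 2 rises. Sdhd, a subunit of succinate dehydrogenase, rose by 0.80 (SE 0.11).

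Of 34 measured genes of lipid handling 13 rose and 8 fell, or 19 and 2 with arrays scaled to the median of every probe, and the list median of 0.15 turned to -0.03 with the median of kept probes. Without MN1 replicate 2, 12 rose and 5 fell. Lpl, lipoprotein lipase, measured 12.88, 13.25 and 12.82 in MN1-TEL against 9.46, 9.76 and 9.93 in MN1, or 9.61-fold (adjusted p = 2.87e-07). Dgat2, which completes triglyceride synthesis, rose by 2.11 (SE 0.20), and the lipid droplet coat genes Plin3 and Plin2 by 1.61 (SE 0.15) and 1.42 (SE 0.20). G0s2, an inhibitor of triglyceride lipase, was at least 3.31-fold higher.

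In heme and iron metabolism 7 of 26 measured genes rose and 2 fell, or 13 and 2 with arrays scaled to the median of every probe, 7 and 4 with the median of kept probes, where the list median turned to -0.06, and 8 and 5 without MN1-TEL replicate 2. Slc40a1, ferroportin, the exporter of iron from cells, measured 12.17, 12.67 and 12.21 in MN1-TEL and was at least 69.3-fold higher (adjusted p = 8.97e-08), with 1 MN1 array above background. Hfe, a regulator of iron uptake, rose by 1.93 (SE 0.16) and Blvrb, a biliverdin reductase, by 1.21 (SE 0.14). Alas1, the general form of the first heme synthesis enzyme, measured 14.30, 14.60 and 14.59 in MN1-TEL against 13.18, 13.14 and 12.96 in MN1, whereas Alas2, its erythroid form, measured 6.57, 6.62 and 7.72 in MN1 and was at least 1.88-fold lower in MN1-TEL.

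Adhesion and matrix genes included close relatives that moved in opposite directions. Of 18 measured genes of epithelial-type adhesion 6 rose and 7 fell, and their median of -0.17 turned to 0.27 with arrays scaled to the median of every probe. Cdh1, E-cadherin, measured 11.69, 11.54 and 11.65 in MN1-TEL against 8.20, 7.63 and 7.98 in MN1, a rise of 3.69 (SE 0.15), while Cdh3, P-cadherin, measured 11.75, 11.52 and 11.69 in MN1 and was at least 48.4-fold lower in MN1-TEL, with falls of 5.54 and 2.35 at its other probes. Cldn3, a tight junction claudin, was at least 8.36-fold higher and Pkp2, a desmosome plakophilin, at least 6.37-fold lower. Esrp2, an epithelial splicing factor, was at least 1.45-fold lower. Among 23 measured collagens, laminins and matrix enzymes 8 rose and 11 fell, a balance that turned to 11 and 8, and the list median of -0.50 to 0.07, with arrays scaled to the median of every probe. Col4a1, a basement membrane collagen, measured 11.11, 10.73 and 12.02 in MN1 and was at least 37.5-fold lower. Its partner chain Col4a2, chosen after its value was seen, went the other way at 6.89, 8.01 and 7.41 in MN1-TEL, at least 2.29-fold higher. The inhibitors of matrix proteases diverged, with Timp2 detected in MN1-TEL only, at 8.94, 9.44 and 9.13 and at least 7.98-fold higher, and Timp3 detected in MN1 only, at 7.67, 7.53 and 7.75 and at least 3.01-fold lower in MN1-TEL.

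**Figure D5:**
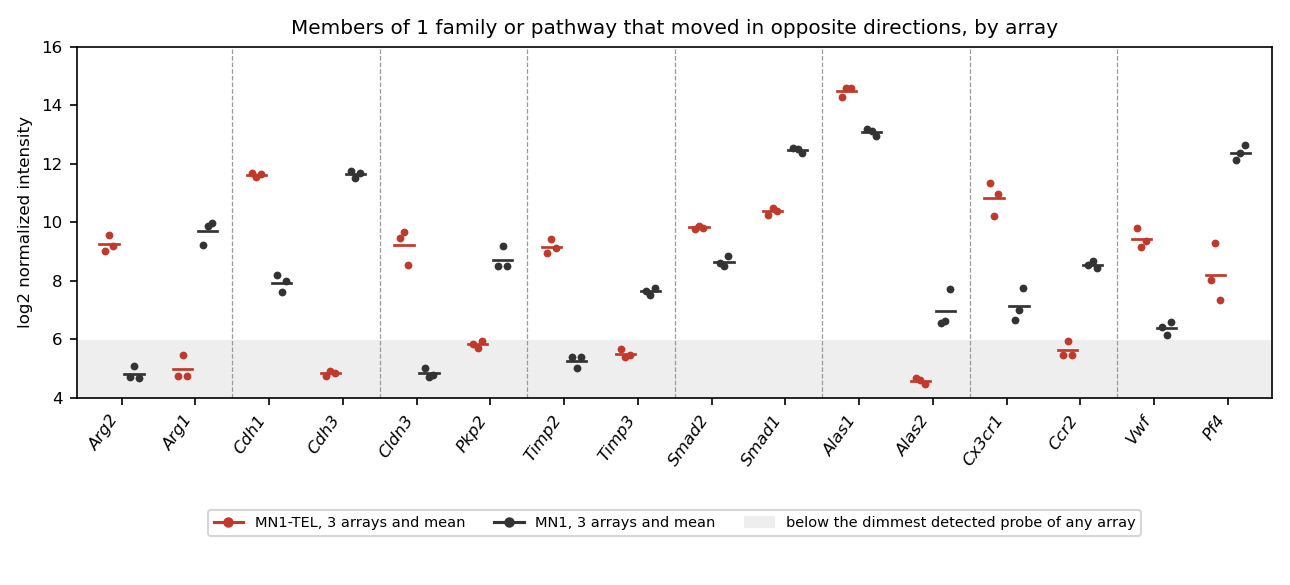
Log2 normalized intensity (vertical axis) of 8 pairs of genes from 1 family, pathway or marker list that moved in opposite directions, with the 3 MN1-TEL arrays in red to the left of the 3 MN1 arrays in black and bars at the group means. The first gene of each pair is higher in MN1-TEL and the second lower, and the pairs were chosen after their values were seen. The grey band lies below the dimmest detected probe of any array.

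Chromatin genes were examined through the known partners of TEL and of MN1. Of 25 measured TEL corepressors and MN1 partners 1 rose and 9 fell, but with arrays scaled to the median of every probe 11 rose and 4 fell. Hdac7, a class II histone deacetylase, measured 8.23, 7.88 and 8.13 in MN1-TEL against 10.04, 10.12 and 10.19 in MN1, a fall of 2.04 (SE 0.17, limma adjusted p = 8.12e-06). Mllt3, a reader of histone acylation in the super elongation complex, fell by 1.97 (SE 0.17) and by 3.09 and 2.15 at its other probes. Kmt2a, the histone methyltransferase MLL, fell by 0.83 (SE 0.11). Hdac4 was the member that rose, by 0.89 (SE 0.16). Histone genes rose in 6 and fell in 12 of 46 measured members, or in 23 and 3 with arrays scaled to the median of every probe, in 10 and 16 without MN1-TEL replicate 2, and in 5 and 5 without MN1 replicate 1. H1f2, a linker histone, measured 15.05, 14.83 and 14.68 in MN1-TEL against 13.62, 13.71 and 13.74 in MN1, and Macroh2a1, a variant of repressed chromatin, fell by 1.50 (SE 0.11) while its other probes ranged from -1.06 to 0.70. Histone genes have near-identical copies, and their probes are uncertain.

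Markers of other lineages are given last. Of 14 mast cell and basophil markers 13 were measured, with a summed level of 16.8 to 17.4 in MN1-TEL and 16.9 to 17.1 in MN1. Of them 5 rose and 2 fell, but 4 and 4 did with arrays scaled to the median of kept probes, and 3 and 2 without MN1-TEL replicate 3 or without MN1 replicate 2. Cpa3, the mast cell carboxypeptidase, chosen after its values were seen, measured 14.97, 14.98 and 14.96 in MN1-TEL against 15.10, 15.03 and 15.08 in MN1, bright in both, and was not called (difference -0.10, SE 0.09). Mcpt8, a protease of basophils, fell by 1.49 (SE 0.24), and Hdc, which makes histamine, by 0.78 (SE 0.14), while Mcpt1, a mast cell protease with near-identical relatives, was detected in MN1-TEL only and was at least 3.998-fold higher. Of 10 eosinophil markers 2 were measured, and Prg2, the major basic protein, measured 10.87, 12.15 and 10.94 in MN1-TEL against 9.58, 8.90 and 9.36 in MN1. Ear6 was at least 2.42-fold higher, and Epx, Prg3, Siglecf, Ccr3 and Il5ra did not pass the filter.

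Platelet genes were mostly lower, with 5 of 7 measured markers down and 1 up. Pf4, a chemokine of platelet granules, measured 8.02, 9.29 and 7.35 in MN1-TEL against 12.14, 12.36 and 12.63 in MN1, a fall of 4.16 (SE 0.40), and Treml1, a receptor of platelet granules, was at least 1.91-fold lower. Vwf, von Willebrand factor, of platelets and endothelium, measured 9.80, 9.16 and 9.36 in MN1-TEL against 6.41, 6.16 and 6.61 in MN1. Of 5 measured erythroid markers 3 fell, Klf1 at least 2.14-fold, Epor at least 2.27-fold and Alas2 as given, and without MN1-TEL replicate 1 another 2 rose. Lymphoid markers were few, with Cd79b the only B marker measured and at least 2.32-fold lower, and Cd8b1 and Nkg7 the measured T and NK markers, higher by 0.43 and 0.91. The Cd8b1 call was lost with arrays scaled to the median of kept probes, and the Nkg7 call without MN1 replicate 2 (adjusted p = 0.0643) or replicate 3 (adjusted p = 0.0586). Of 4 measured stroma and endothelium markers 2 rose, Acta2, smooth muscle actin, at least 13.8-fold, though its other probes ranged from near 0 to 2.88, and Vwf, while Col1a1, Pdgfra and Cdh5 did not pass the filter.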

How the data were processed

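Total RNA of 9 samples in 3 groups of 3 was hybridised to Illumina mouse arrays and scanned. Per the file headers, the deposited table holds a non-normalized probe intensity and a detection p-value per array, and the submitters' processing notes name GenomeStudio 2010.3. Here the intensities were background-corrected from the detection p-values and quantile normalized to log2 values with neqc of limma 3.58.1 (R 4.3.3, offset 16). The authors' normalized intensities in the value table, of unstated normalization, served as an alternative. Values under 16 were first raised to 16, and log2 was then taken. Probes with a detection p under 0.01 on at least 3 of 9 arrays were kept, 15870 of 45281, and the kept probe with the highest mean stood for its gene. Of all probes 34885 carried 1 gene symbol, 18 several and 10378 none, and 34807 were updated through Entrez identifiers to the GRCm38.p6 RefSeq table. All 9 arrays were fitted with lmFit and eBayes (6 residual degrees of freedom), with Benjamini-Hochberg adjustment over 9136 genes and a threshold of 0.05. Every adjusted p in the text comes from this limma fit or its named alternatives. The fit was also run on simulated normalized arrays with independent noise and far fewer changed genes than here. That simulation cannot check the scaling or the effect of an array that stands apart.

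The rule for named genes took called genes, not overlapping between groups and outside the neutrophil and Hox lists. They were the 12 largest rises and 12 largest falls among genes detected on all 6 arrays, the 8 brightest genes detected in 1 group alone for each group, up to 6 members per list and 3 per marker list by adjusted p, and Mn1, Etv6 and Bmi1. Any other gene given, such as Kit, which served to check the label, Eef2, Ptprc, Msn and Cpa3, was chosen after its values were seen. The members and lists were chosen with earlier results of these data known. Promoter windows ran from 250 bases before to 50 after each start, and 167 of 216 named genes had one. Matches in named genes were listed for printing without covering every chromosome, whereas the shares of windows used all of them. Same-numbered MN1-TEL and MN1 replicates deviated with correlations of -0.057, -0.026 and -0.090, so the numbers were not treated as pairs. A raised level is relative to quantile-normalized arrays, and a bound fold uses the dimmest detected probe of each array.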

Additional observations from a re-analysis of the deposited data

Results flagged for a closer look

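Probes that carry no single gene symbol lie outside the comparisons of genes, and 2064 of them were kept. Of these, 171 were called and at least 2-fold higher in MN1-TEL than in MN1, and 172 were called and at least 2-fold lower. Among the genes tested 11% were called and at least 2-fold higher and 9.36% lower, and the shares of these probes were no larger. They are flagged only as data that the gene comparisons do not use. Their genes are not named here.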

How the results depend on the processing

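Under 20 alternatives the split of called genes moved most with scaling. With arrays scaled to the median of every probe, an alternative chosen after seeing the data, 4497 genes were higher and 1028 lower, of which 1963 and 467 by at least 2-fold. With detection required on all 6 arrays, fewer genes were tested and 619 were at least 2-fold higher and 513 lower. With the 6 arrays alone, without MN1-TEL del DBD, 8901 genes were tested, and 2089 were called higher and 2390 lower. Leaving out each array in turn gave 2006 to 2441 genes higher, 2266 to 3065 lower, 988 to 1040 at least 2-fold higher and 820 to 952 at least 2-fold lower. The replicate block, for numbers that do not pair the samples, gave 2244 higher and 2533 lower. Of 819 list medians under alternatives, 667 moved by less than the spread and 10 reversed. With arrays scaled to the median of every probe the reversed medians were 0.15 for Wnt and Notch, 0.33 for amino acid transporters, 0.23 for the tricarboxylic acid cycle, 0.31 for TEL corepressors and MN1 partners and 0.27 for epithelial-type adhesion. With detection on all 6 arrays they were 0.23 for amino acid transporters, 0.81 for epithelial-type adhesion and 0.33 for erythroid markers. Amino acid transporters also stood at 0.14 with array weights and between -0.31 and 0.29 as single arrays were left out, the upper value without MN1-TEL replicate 2. Apart from the scaling and the smaller set of genes tested, the cause was not tested. Of 4225 values of named genes, 42 lost their call and 1 gained it, and 0 reversed. Most named genes were picked for large or well separated differences, so this steadiness was largely fixed by the selection. Of all 4995 called genes, 3329 kept their call and sign with arrays scaled to the median of every probe, and 520 changed sign. With the median of kept probes 4576 kept their call and sign and 17 changed sign. Genes near background have only a bound, which limits their folds.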
